A study of Mus musculus with 72 samples.

Results

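The 10 genes described here encode dual-specificity phosphatases that act on MAP kinases: Dusp1, Dusp2, Dusp4, Dusp5, Dusp6, Dusp7, Dusp8, Dusp10, Dusp14 and Dusp16. They were taken by gene symbol from a table of raw RNA-seq counts that lists 50600 genes in 72 libraries, and all 10 were found. No threshold on a measured value was applied, but they were chosen with earlier results of these data known. On GRCm38 each lies on a chromosome of its own: Dusp1 at chr17:26505590-26562128, Dusp2 at chr2:127336159-127338376, Dusp4 at chr8:34807297-34819894, Dusp5 at chr19:53529109-53542431, Dusp6 at chr10:99263231-99267489, Dusp7 at chr9:106368632-106375724, Dusp8 at chr7:142079490-142095843, Dusp10 at chr1:184013302-184075636, Dusp14 at chr11:84048041-84069261 and Dusp16 at chr6:134715468-134792625. The libraries came from 6 mouse melanoma lines, each given 4 treatments in 3 replicates. The question behind the treatments is which transcripts respond when the gastrin-releasing peptide receptor (GRPR, gene Grpr) is activated by its ligand, and whether a GRPR antagonist prevents the response.

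All 6 lines carry the Tyr::NRASQ61K/° transgene, which places an activated NRAS under the tyrosinase promoter of pigment cells. Lines 1057 and 1064, from female mice, also carry Cdkn2a-/-, Tyr::CreA/° and Cdh1dF/dF, and their labels record them as Grpr-positive without any added construct. The 1181 line comes from a male mouse with Cdkn2a-/- and Cdh1dF/dF but no Cre (°/°), and the 1014 line from a female mouse with the NRAS transgene alone. Both were transfected with a plasmid and selected with geneticin: CMV::Grpr/tGFP gave 1181-Grpr and 1014-Grpr, and CMV::tGFP gave the receptor-free controls 1181-Ctrl and 1014-Ctrl. The cells were kept for 18 h in 0.5% fetal calf serum. They were then exposed for 4 h to 0.1% DMSO (mock), to GRP at 10 nM, to the GRPR antagonist RC-3095 at 1 µM (RC), or to both agents (GRP+RC). The DMSO content of the GRP, RC and GRP+RC treatments is not given in the sources used here. Each line is a single tumour-derived culture, so a difference between lines cannot be assigned to 1 element of their genotypes. In the transfected lines the receptor is driven by the CMV promoter and not by its own.

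MAP kinases (ERK, JNK and p38) are switched on when a threonine and a tyrosine in their activation loop are both phosphorylated, and the MAP kinase phosphatases remove both phosphates. Dusp1, Dusp2, Dusp4 and Dusp5 encode nuclear enzymes that are typically induced by growth signals, and DUSP5 acts on ERK. Dusp6 and Dusp7 encode cytoplasmic enzymes that prefer ERK, Dusp8, Dusp10 and Dusp16 encode enzymes that prefer JNK and p38, and Dusp14 encodes a small enzyme that lacks the MAP kinase-binding domain of the others. Melanomas with mutant NRAS or BRAF commonly hold high DUSP4 and DUSP6 transcript levels, which are used as a readout of ERK output.

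The libraries held 19512882 to 46862053 counted reads, with a median of 28112904.5. Levels are given as CPM, counts divided by library size after TMM scaling over all 72 libraries. The CPM of Grpr, Cdh1, Xist and the Y-linked genes were computed from library totals without TMM scaling. On that unscaled basis 3 counts, taken as the detection floor, corresponded to at most 0.154 CPM. All 7 melanocyte-lineage markers checked exceeded 1 CPM in at least 1 library of every line, with Tyrp1 lowest, at 0.838 to 4.18 CPM in 1181-Ctrl, and the leukocyte marker Ptprc stayed at or below 0.308 CPM. The 2 endothelial markers, Pecam1 and Cdh5, summed to at most 6.75 CPM in 1057, 6.18 CPM in 1064 and 0.468 CPM elsewhere. In 1057 and 1064 Cdh5 made up most of the sum, with Pecam1 at most 0.193 and 0.279 CPM. The keratinocyte markers summed to at most 1.47 CPM, and the part of these markers in the results was not tested. The targeted gene Grpr read 166 to 254 CPM in 1057, 393 to 1171 CPM in 1064 and 112 to 596 CPM in 1014-Grpr. It was much lower in 1181-Grpr, at 8.97 to 87.6 CPM, and at most 0.101 CPM in the libraries of 1181-Ctrl. Cdh1 read at most 0.0569 CPM in 1057 and 0.107 CPM in 1064, and 16.0 to 29.9 CPM in 1181-Ctrl, which carries the same Cdh1 label without Cre. It read 0.66 to 3.28 CPM in 1014-Grpr. In 1014-Ctrl it read 1.95 to 5.31 CPM apart from mock replicate 2 (23.9 CPM), and in 1181-Grpr 10.3 to 26.9 CPM apart from GRP+RC replicate 2 (4.79 CPM).

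In 2 libraries the sex-linked and receptor transcripts went against the labels. The library labelled 1181-Grpr GRP+RC replicate 2 held 0 Grpr counts and 826 CPM of Xist, whereas the other 11 libraries of 1181-Grpr held 146 to 191 CPM over the 4 Y-linked genes checked. The library labelled 1014-Ctrl mock replicate 2 held 50.6 CPM of Grpr and 182 CPM over those 4 genes, which were at most 0.0337 CPM in the other 11 libraries of 1014-Ctrl. Apart from these, Xist read 205 to 272 CPM in the other 11 libraries of 1181-Grpr, a line labelled male, and at most 0.710 CPM in 1181-Ctrl. The melanin-pathway gene Dct differed too, at 5216 CPM or more in 1181-Grpr and at most 339 CPM in 1181-Ctrl, so the receptor and other differences between these lines cannot be told apart. The members stood apart in the same 2 libraries: Dusp4 read 1106, 432 and 1238 CPM in 1181-Grpr GRP+RC replicates 1, 2 and 3, and 409, 1315 and 354 CPM in 1014-Ctrl mock. The doubted 1181-Grpr library lay within the range of the other 11 libraries of 1014-Ctrl for Xist (604 to 1099 CPM) and Cdh1, with 1 Y-linked count. The doubted 1014-Ctrl library lay within the range of the other 11 libraries of 1181-Grpr for Grpr, Cdh1 and the Y-linked genes. Its Xist, at 181 CPM, was just below theirs. Whether the 2 were exchanged was not tested. Both libraries were kept under their labels, and the differences between groups that include them are given with and without them where the values moved.

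The sequence just before a RefSeq transcript start of 3 members is shown. It holds complete copies of response elements that are known from genes induced by growth signals. For Dusp8 and Dusp1 that start, and so the sequence before it, lies inside the gene span given above. The 250 bases before the RefSeq transcript start (GRCm38.p6) were searched on both strands in the 9 members with an entry in the sequence table; Dusp4 had none. The searched letters were TGACGTCA, the cAMP response element, TGACG, the first 5 letters of that element, the CArG box by its name, TGANTCA, the AP-1 site, and CCGGAAG, an ETS core. The full cAMP response element occurred in 1.55% of the 32851 promoters of the table, its 5 letters in 17.8%, the CArG box in 1.47%, the AP-1 site in 6.75% and the ETS core in 6.91%. The Dusp8 window held the full cAMP response element at positions -107 to -100 and again at -63 to -56, and the Dusp1 window held it at -143 to -136 with the 5 letters alone at -191 to -187. The Dusp5 window held 2 CArG boxes side by side, CCATATTTGG at -82 to -73 and CCTTATATGG at -72 to -63, with the 5 letters on the other strand at -55 to -51. Dusp16 held the 5 letters at -70 to -66, and none of the 9 windows held the AP-1 or ETS letters. Looser forms of the AP-1 and ETS sites were not searched. A match is a description of letters and not evidence of binding. Below, capitals mark these matches, the sequences run 5′ to 3′ on the strand of the gene, and bases that lie in an annotated exon of the gene were left off the 3′ end (36 in Dusp5, 47 in Dusp1, 0 in Dusp8).
Dusp5, chr19:53528895-53529108, plus strand: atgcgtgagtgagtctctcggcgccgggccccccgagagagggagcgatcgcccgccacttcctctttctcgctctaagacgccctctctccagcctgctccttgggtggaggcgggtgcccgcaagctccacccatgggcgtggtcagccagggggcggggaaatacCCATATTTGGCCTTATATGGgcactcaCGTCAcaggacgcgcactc
Dusp8, chr7:142095285-142095534, minus strand: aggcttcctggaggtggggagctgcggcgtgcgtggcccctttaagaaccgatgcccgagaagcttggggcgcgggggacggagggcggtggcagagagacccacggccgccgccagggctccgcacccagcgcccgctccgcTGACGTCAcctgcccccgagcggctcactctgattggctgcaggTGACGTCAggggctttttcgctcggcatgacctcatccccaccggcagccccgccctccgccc
Dusp1, chr17:26508520-26508722, minus strand: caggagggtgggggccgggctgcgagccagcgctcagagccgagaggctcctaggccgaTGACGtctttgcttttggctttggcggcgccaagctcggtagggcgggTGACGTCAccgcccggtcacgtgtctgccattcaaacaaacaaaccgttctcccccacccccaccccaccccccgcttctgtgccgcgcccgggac

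GRP raised 7 of the 10 phosphatase transcripts in 1057, 7 in 1014-Grpr and, by the same test, Dusp5 alone in 1064. In 1057 another 2 members fell, which makes 9 called (edgeR's quasi-likelihood test, adjusted p under 0.05), against 52.6% of the 14195 genes tested that changed in either direction. The median log2-fold change of the members was 0.99, beside -0.01 over all genes tested. In 1014-Grpr 7 members rose and none fell, against 29.0% of 13730 genes, with a median of 0.59 beside -0.02. In 1064 1 member rose, against 6.38% of 13794 genes, with a median of 0.54 beside -0.02. In these bulk libraries a change in RNA per cell cannot be told apart from a change in which cells were present. Same-numbered libraries of 1064 and of 1014-Grpr deviated together, so the test was also run with the replicate number as a block. With the block 5 members rose in 1064 (43.5% of genes called) and 9 in 1014-Grpr (53.6%).

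Dusp5, the nuclear ERK phosphatase, rose in all 3 of these lines. In 1057 it read 44.9, 42.4 and 43.7 CPM in the mock libraries and 138, 142 and 137 CPM with GRP, a log2-fold change of 1.69 ± 0.036 (s.e., adjusted p = 6.91e-17). In 1064 the mock libraries read 17, 17.3 and 22.3 CPM and the GRP libraries 55.0, 45.9 and 47.8 CPM (1.40 ± 0.12, adjusted p = 0.00142). In 1014-Grpr, where it was scarcer, the values were 3.69, 3.55 and 3.35 CPM against 10.2, 15.3 and 13.3 CPM (1.89 ± 0.15, adjusted p = 4.66e-06). In each line the lowest GRP library lay above the highest mock library. The call in 1064 was lost without replicate 1 or without replicate 2, at adjusted p of up to 0.165, with the change still between 1.26 and 1.56. Exons of Dusp5 share 22.1% of their bases with AC137853.2 on the other strand, and whether strand was used in counting is not given in the sources used here.

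**Figure D1:**
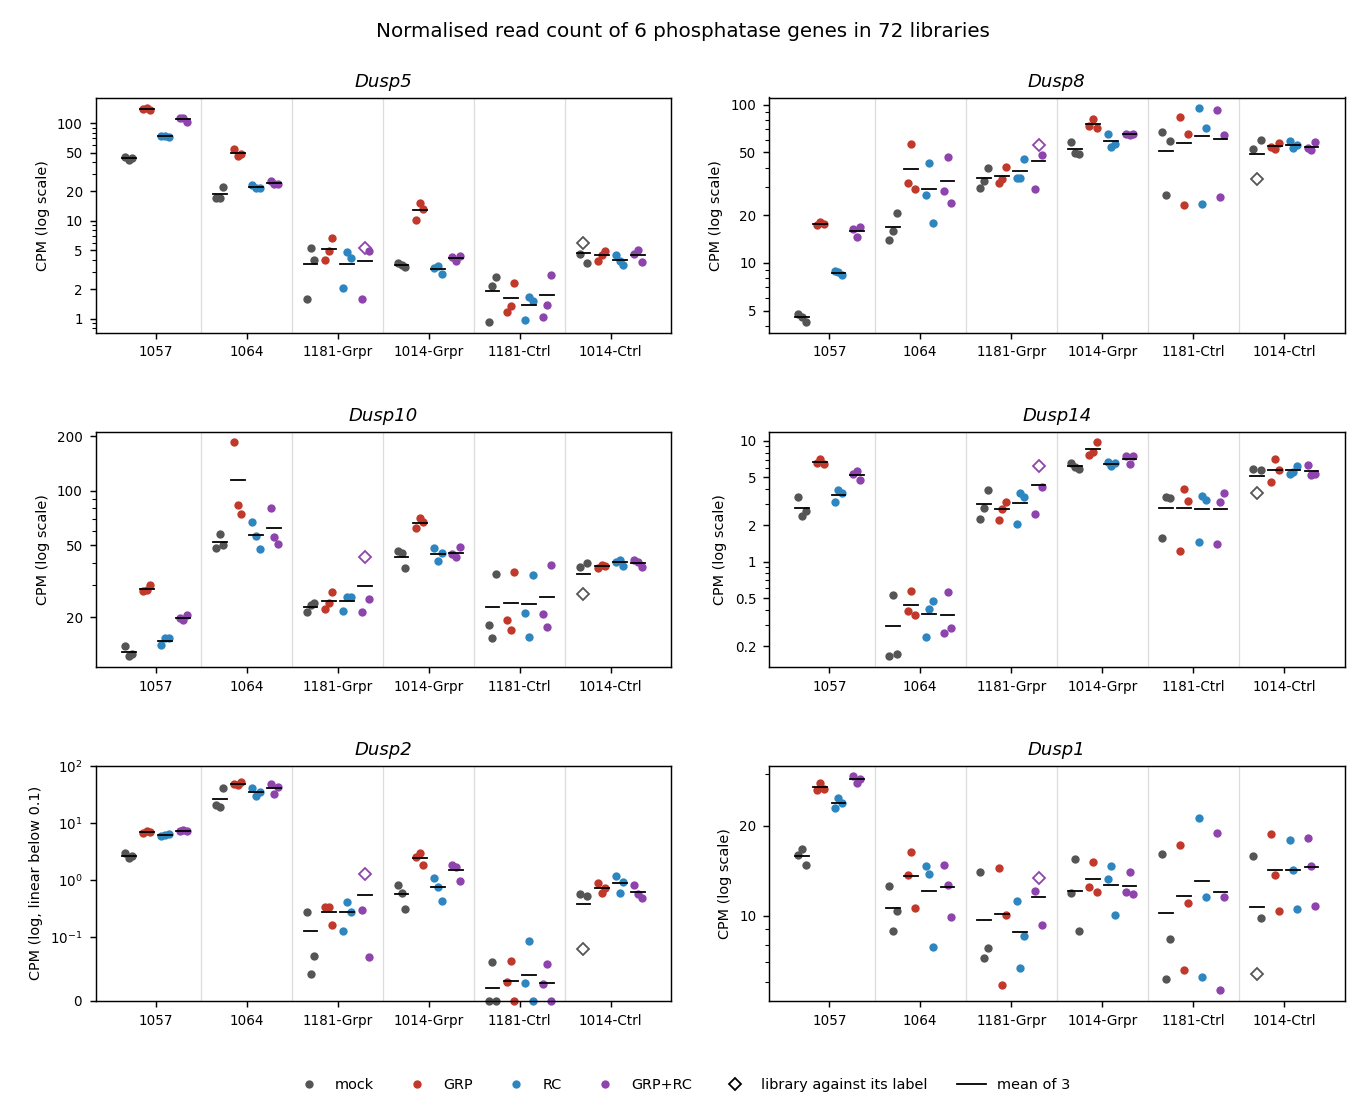
CPM (log axis) of Dusp5, Dusp8, Dusp10, Dusp14, Dusp2 and Dusp1 in each library, by line and treatment; each point is a library, each short line the mean of 3, and open diamonds mark the 2 libraries that go against their labels. Dusp5 in 1057 climbs from 42.4 to 44.9 CPM in mock to 137 to 142 CPM with GRP.

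The phosphatases with a preference for JNK and p38 responded to different extents. Dusp8 had the largest log2-fold change of the members in 1057, from 4.76, 4.58 and 4.23 CPM to 17.4, 18.2 and 17.5 CPM (1.99 ± 0.075, adjusted p = 1.46e-13). In 1014-Grpr it was already at 58.0, 49.8 and 48.5 CPM and reached 73.5, 81.3 and 70.6 CPM (0.54 ± 0.09, adjusted p = 0.000857). In 1064 it moved from 14.0, 15.9 and 20.6 CPM to 31.8, 56.2 and 29.3 CPM, groups that did not overlap, with an adjusted p of 0.0788 that fell to 0.003 with the block.

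Dusp10 rose in the same lines as Dusp8. It went from 13.9, 12.2 and 12.5 CPM to 27.9, 28.4 and 30.2 CPM in 1057 (1.19 ± 0.058, adjusted p = 5.11e-12). In 1014-Grpr the values were 46.8, 45.6 and 37.2 CPM in mock and 62.3, 70.9 and 67.4 CPM with GRP (0.64 ± 0.096, adjusted p = 0.000404). In 1064 GRP replicate 1 read 186 CPM beside 83.4 and 74.8 CPM in the other replicates, all above the mock values of 48.5, 57.6 and 50.4 CPM, and the adjusted p was 0.0611, or 0.00265 with the block. Dusp16 moved least of the genes in this group: it rose by 0.36 ± 0.037 in 1057, from 57.4 to 64.2 CPM up to 77.6 to 78.4 CPM (adjusted p = 1.55e-07), and its difference of 0.19 ± 0.086 in 1014-Grpr passed only with the block (adjusted p = 0.123 without it and 0.00332 with it).

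Among the remaining nuclear enzymes, Dusp2 responded in more than 1 line and Dusp1 in 1057. Dusp2, first described in lymphocytes, read 2.98, 2.44 and 2.63 CPM in mock and 6.75, 7.32 and 6.88 CPM with GRP in 1057 (1.40 ± 0.096, adjusted p = 6.06e-10). In 1014-Grpr it was near the lower limit of the measurement, at 0.811, 0.602 and 0.309 CPM in mock and 2.55, 3.02 and 1.84 CPM with GRP (2.07 ± 0.38, adjusted p = 0.00166). In 1064 it was far more abundant, at 20.6, 18.7 and 40.9 CPM in mock and 47.8, 45.2 and 52.2 CPM with GRP (0.86 ± 0.27), and the adjusted p of 0.0892 became 0.00391 with the block.

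Dusp1, the classical immediate-early phosphatase, rose in 1057 from 16.0, 16.8 and 14.8 CPM to 26.4, 28.0 and 26.6 CPM (0.79 ± 0.054, adjusted p = 6.95e-10). Its mock and GRP libraries overlapped in 1064 (8.86 to 12.6 against 10.6 to 16.4 CPM, adjusted p = 0.495) and in 1014-Grpr (8.87 to 15.6 against 12.1 to 15.1 CPM, adjusted p = 0.657). The small phosphatase Dusp14 rose in 1057 from 3.41, 2.38 and 2.6 CPM to 6.51, 7.09 and 6.43 CPM (1.28 ± 0.12, adjusted p = 7.47e-08). It rose less in 1014-Grpr, from 5.87 to 6.53 CPM up to 7.65 to 9.72 CPM (0.48 ± 0.12, adjusted p = 0.00864). In 1064 it was close to the floor, at 0.165 to 0.534 CPM in mock and 0.359 to 0.568 CPM with GRP.

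The cytoplasmic ERK phosphatases behaved differently in the 2 lines with the clearest responses. Dusp6 in 1057 read 913, 921 and 906 CPM in mock and 903, 915 and 935 CPM with GRP, a difference of 0.03 ± 0.027 (adjusted p = 0.361). In 1014-Grpr it rose from 259, 247 and 282 CPM to 413, 429 and 499 CPM (0.78 ± 0.093, adjusted p = 8.1e-05). In 1064 the mock libraries were widely spread, at 441, 583 and 899 CPM, and each same-numbered GRP library was higher, at 787, 815 and 996 CPM (0.44 ± 0.25, adjusted p = 0.343, or 0.49 ± 0.1 and 0.00304 with the block).

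Dusp7 fell slightly in 1057, from 120, 128 and 128 CPM to 112, 107 and 114 CPM (-0.15 ± 0.039, adjusted p = 0.00314), a call that was lost without replicate 2 (adjusted p = 0.0668). It rose in 1014-Grpr, from 52.2, 49.8 and 50.3 CPM to 82.6, 89.1 and 78.2 CPM (0.73 ± 0.066, adjusted p = 9.78e-06). Dusp4, the nuclear phosphatase with the highest level of all 10, fell in 1057 from 1058, 1100 and 1064 CPM to 830, 879 and 854 CPM (-0.31 ± 0.031, adjusted p = 1.57e-07). Its small difference in 1014-Grpr, 381, 383 and 336 CPM against 440, 444 and 384 CPM, passed only with the block (0.22 ± 0.034, adjusted p = 2.1e-05).

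**Figure D2:**
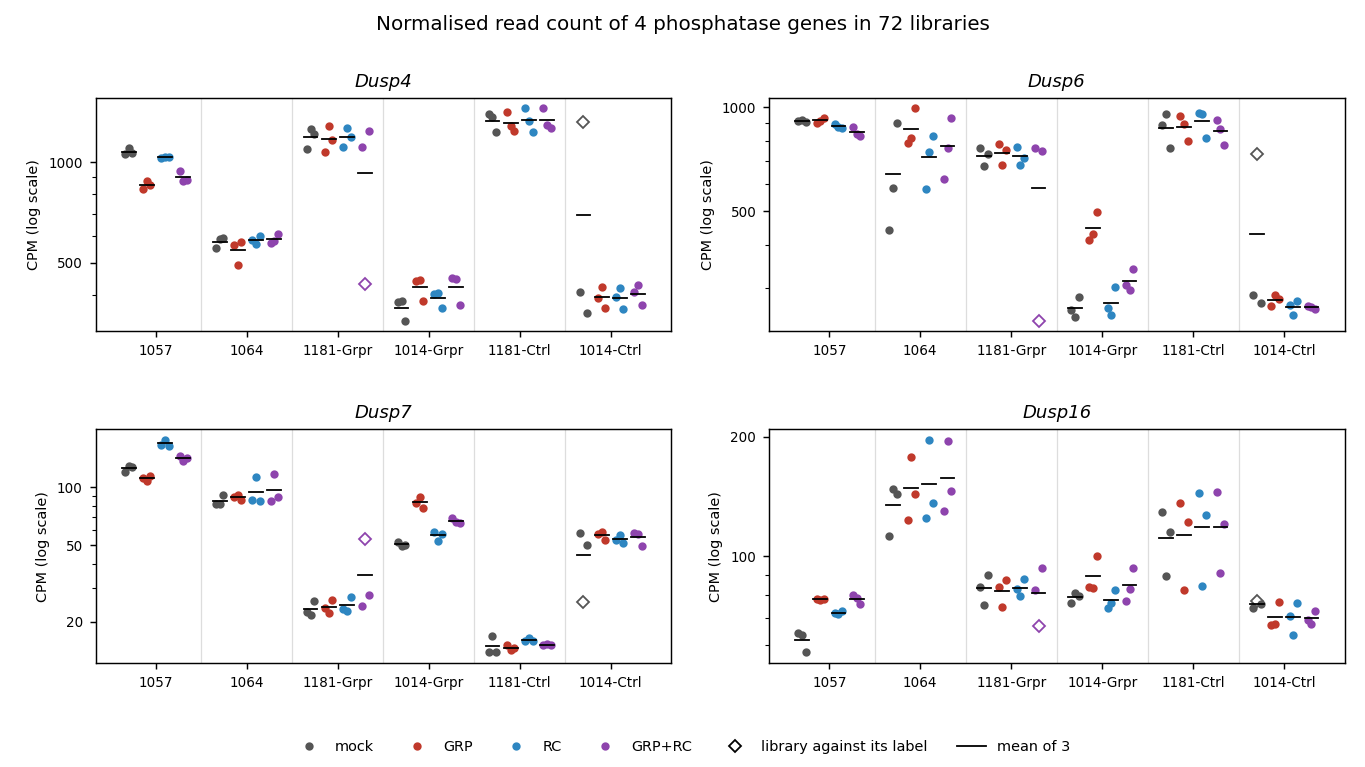
CPM (log axis) of Dusp4, Dusp6, Dusp7 and Dusp16 in each library, by line and treatment; each point is a library, each short line the mean of 3, and open diamonds mark the 2 libraries that go against their labels. Dusp6 and Dusp7 rise with GRP in 1014-Grpr, whereas Dusp6 in 1057 stays between 828 and 935 CPM in all 12 libraries.

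The antagonist lowered some of the GRP-induced members and not others. In 1057, GRP+RC against GRP gave 5 lower members and 1 higher member, against 24.7% of genes called. Dusp10 fell to 19.9, 19.4 and 20.5 CPM (-0.55 ± 0.055, adjusted p = 6.55e-07) and Dusp5 to 112, 114 and 103 CPM (-0.36 ± 0.033, adjusted p = 2.33e-07). Both stayed above every mock library of the line. Dusp14 fell by 0.38 on the log2 scale, Dusp8 by 0.18 and Dusp6 by 0.13, while Dusp7 rose by 0.33 ± 0.039 (adjusted p = 5.34e-06). The Dusp8 call, at an adjusted p of 0.0474, held in 0 of 7 alternative analyses, and without replicate 3 only 3 members passed. Of the 7 members that GRP had raised in 1057, 3 did not pass for a lower level with the antagonist: Dusp2, at 7.09, 7.51 and 7.12 CPM, Dusp1, at 29.3, 27.9 and 28.8 CPM, and Dusp16, at 79.8, 78.9 and 75.9 CPM. Dusp6, which fell, had not been raised by GRP.

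In 1014-Grpr 4 members were lower with GRP+RC than with GRP, against 11.8% of genes called, and 7 with the replicate block (38.7%). Dusp5 returned to 4.31, 3.91 and 4.42 CPM, each slightly above the highest mock value (-1.64 ± 0.15, adjusted p = 5.2e-05). Dusp10 returned to 44.8, 43.1 and 48.7 CPM (-0.57 ± 0.096, adjusted p = 0.00236), values that overlapped its mock libraries. Dusp6 went to 305, 295 and 341 CPM (-0.53 ± 0.093, adjusted p = 0.00311) and Dusp7 to 69.3, 65.7 and 65.1 CPM (-0.34 ± 0.065, adjusted p = 0.0056), and both remained above all of their mock libraries. The members added by the block were Dusp2 (-0.74), Dusp14 (-0.29) and Dusp8 (-0.23). Without replicate 1 or without replicate 2 the calls dropped to 2 and 1.

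In 1064 Dusp5 was 1 of only 4 genes lower with GRP+RC than with GRP, which is 0.029% of genes called. It read 25.8, 23.7 and 24.1 CPM, below all GRP libraries and above all mock libraries (-1.03 ± 0.12, adjusted p = 0.0244). With the block Dusp10 was also lower (-0.84 ± 0.2, adjusted p = 0.0169), against 21.2% of genes called. Leaving out any 1 replicate number removed the Dusp5 call, with the difference between -1.06 and -0.99.

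RC alone raised 7 members in 1057, against 24.3% of genes called, and none in the other lines. Dusp2 went from 2.44 to 2.98 CPM up to 5.87, 6.24 and 6.51 CPM (1.20 ± 0.098, adjusted p = 6.79e-08), nearly as high as with GRP. Dusp8 reached 8.89, 8.72 and 8.33 CPM (0.93 ± 0.083, adjusted p = 2.03e-07), Dusp5 73.4, 73.3 and 72.3 CPM (0.74 ± 0.037, adjusted p = 1.4e-10), and Dusp1 22.9, 24.9 and 23.9 CPM (0.59 ± 0.055, adjusted p = 4.23e-07). Dusp7 rose with RC, to 165, 176 and 164 CPM (0.42 ± 0.039, adjusted p = 3e-07), although it fell with GRP. Dusp16 (0.22) and Dusp10 (0.21) rose slightly. Grpr itself was lower in 1057 in all 3 treated groups than in mock, at 186 to 191 CPM with RC and 174 to 186 CPM with GRP against 246.5 to 254 CPM.

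In 1064 and in 1014-Grpr no member passed for RC against mock, with 0.0% of genes called in each by edgeR. At an unadjusted p under 0.05 there were 0 members in 1064 and 1 in 1014-Grpr (Dusp7), and 129 and 161 genes in all, and DESeq2 called 0 members in both. For Dusp5 the RC values overlapped mock in 1014-Grpr (2.89 to 3.46 against 3.35 to 3.69 CPM) and in 1064 (21.8 to 23.2 against 17 to 22.3 CPM).

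The comparison of GRP+RC with mock asks what was left of the response. It shares its mock libraries with the comparisons of GRP and of RC, so the 3 sets of values stand side by side and are not independent. In 1057 all 10 members passed, against 44.3% of genes called: 8 were higher, led by Dusp8 (1.82), Dusp2 (1.43) and Dusp5 (1.33), and Dusp4 (-0.25) and Dusp6 (-0.10) were lower. For Dusp5 in 1057 the log2-fold change against mock was 1.69 with GRP, 0.74 with RC and 1.33 with both. In 1014-Grpr Dusp7 alone passed (0.39 ± 0.066, adjusted p = 0.0187), against 0.947% of genes called, a call that was lost without any 1 replicate. With the block 5 members were higher there, against 17.3%: Dusp2 (1.39), Dusp7 (0.39), Dusp8 (0.31), Dusp6 (0.25) and Dusp4 (0.20). In 1064 none passed, with 0.0% of genes called. There 3 members had an unadjusted p under 0.05 (Dusp5, Dusp8 and Dusp2), beside 352 genes in all, and DESeq2 called 0.

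**Figure D3:**
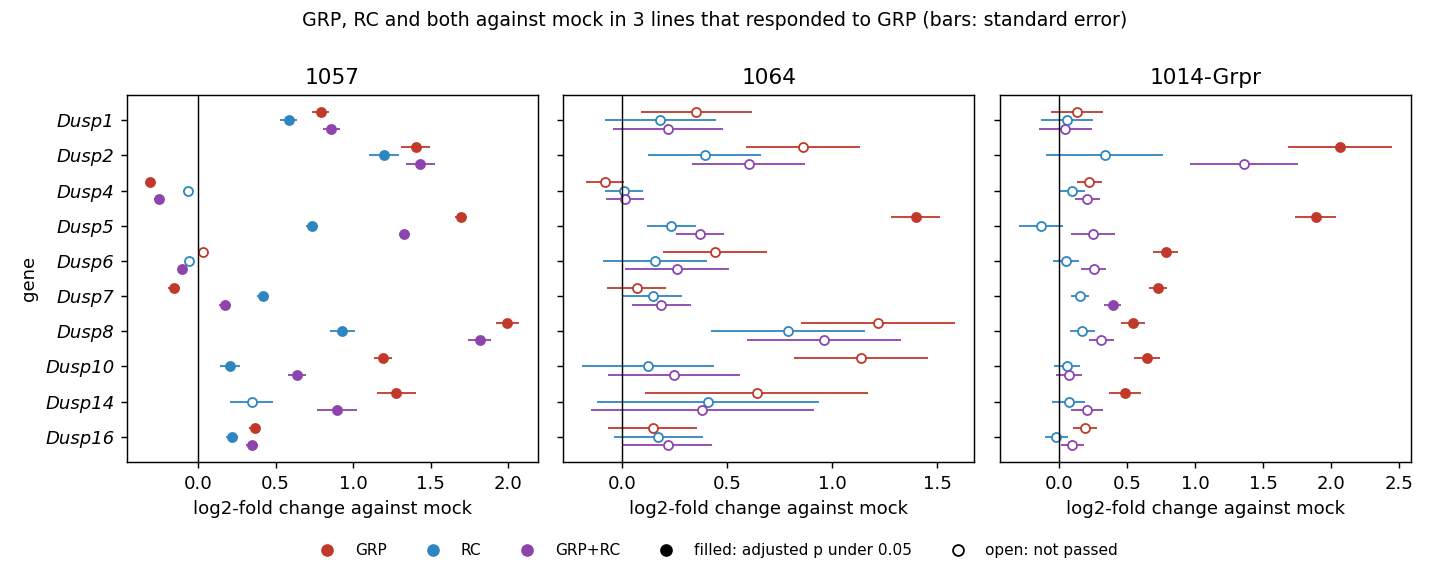
Log2-fold change against mock of each member with GRP, RC and GRP+RC in 1057, 1064 and 1014-Grpr; points are edgeR estimates, filled where the adjusted p is under 0.05, bars are standard errors, and each panel has its own scale. In 1014-Grpr the Dusp5 point falls from 1.89 with GRP to 0.25 with GRP+RC, and in 1057 from 1.69 to 1.33.

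In both control lines and in 1181-Grpr, no member passed the test in any comparison between treatments. For each of the 4 comparisons in these lines edgeR called 0.0% of genes, and DESeq2 called 0 members. Genes with an unadjusted p under 0.05 numbered 33 to 320 in 1181-Grpr, 36 to 39 in 1181-Ctrl and 75 to 694 in 1014-Ctrl. Among the members these were Dusp7 for both GRP+RC comparisons in 1181-Grpr, and Dusp6 and Dusp2 in 1014-Ctrl. Dusp2 was left out of the tests in both 1181 lines by the filter on low counts, at 0 to 34 counts a library, the 34 being in the doubted library and 12 the highest elsewhere. The tests above took no account of same-numbered libraries deviating together, which was strongest in 1181-Ctrl (mean correlation 0.792). Without the doubted libraries and with the replicate block, still no member passed in 1181-Grpr (lowest adjusted p = 0.156) or 1014-Ctrl (lowest 0.407).

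Dusp5, the member most regularly raised in the other receptor lines, read 1.58, 5.35 and 3.96 CPM in mock and 4.03, 4.91 and 6.65 CPM with GRP in 1181-Grpr, groups that overlapped (0.53 ± 0.52). Without the library that goes against its label, same-numbered libraries of 1181-Grpr deviated together, and with the replicate block the difference was 0.60 ± 0.175 (adjusted p = 0.156). In that fit GRP+RC against GRP gave -0.57 ± 0.209 for Dusp5 (adjusted p = 0.455). The Grpr level in 1181-Grpr, 8.97 to 19.4 CPM in mock cells, was below that of every mock library of 1014-Grpr (112 to 148 CPM). In 1181-Ctrl Dusp5 read 0.926, 2.14 and 2.70 CPM in mock and 1.18, 1.36 and 2.35 CPM with GRP. Dusp8 shows how far replicates of that line lay apart. It read 67.3, 26.9 and 59.1 CPM in mock and 83.0, 23.1 and 65.2 CPM with GRP.

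In 1014-Ctrl the mock library that goes against its label decided the size of several differences. GRP against mock gave -0.82 ± 0.39 for Dusp4 and -0.64 ± 0.31 for Dusp6 with it (adjusted p = 0.698 each), and 0.05 ± 0.09 and -0.01 ± 0.054 without it. Dusp5 read 4.56, 5.98 and 3.71 CPM in mock and 3.92, 4.54 and 4.88 CPM with GRP. In 1181-Grpr, leaving out the doubted library brought the GRP+RC against GRP difference of Dusp7 from 0.57 ± 0.26 to 0.11 ± 0.12, that of Dusp4 from -0.33 to 0.00, and that of Dusp6 from -0.33 to 0.04.

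**Figure D4:**
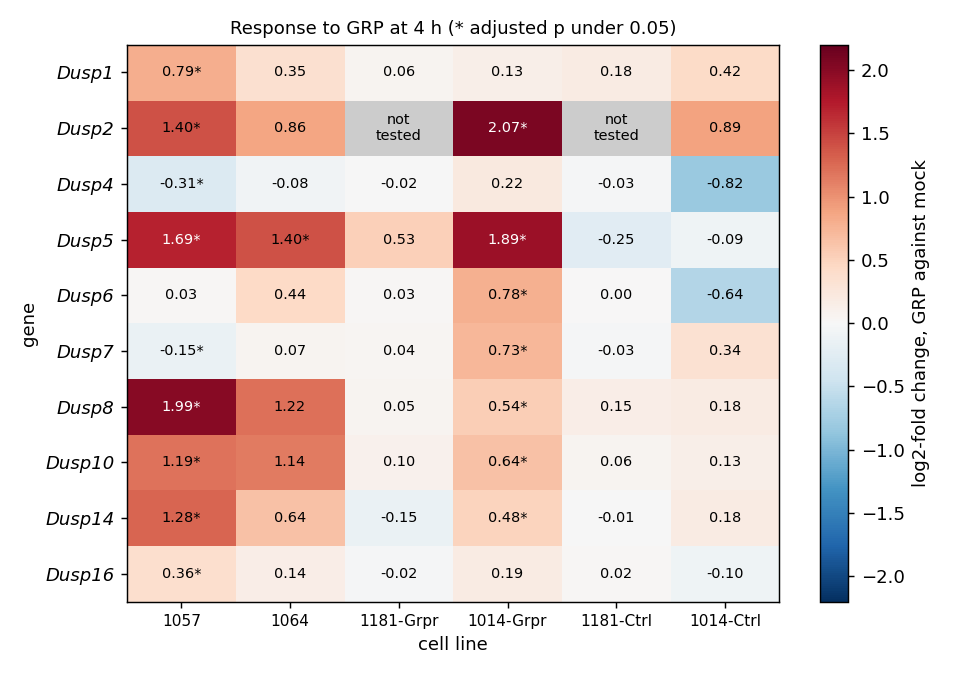
Log2-fold change of GRP against mock for the 10 members (rows) in the 6 lines (columns); asterisks mark an adjusted p under 0.05 in edgeR. There are 9 asterisks in 1057, 7 in 1014-Grpr, 1 in 1064 and none in the remaining 3 lines.

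Whether the response depended on the introduced receptor was tested directly, as the difference of the GRP effects in 1014-Grpr and 1014-Ctrl. It passed for 3 members, against 13.6% of genes called: Dusp5 (1.98 ± 0.25, adjusted p = 2.06e-05), Dusp6 (1.42 ± 0.33, adjusted p = 0.00727) and Dusp10 (0.51 ± 0.16, adjusted p = 0.0372). Without the mock library that goes against its label 5 members passed, against 16.8% of genes called: Dusp5 (1.78 ± 0.23), Dusp6 (0.80 ± 0.12), Dusp7 (0.67 ± 0.11), Dusp10 (0.67 ± 0.12) and Dusp8 (0.57 ± 0.12). In the remaining 23 libraries same-numbered ones deviated together, and with the block 9 members passed, all but Dusp1 (39.3% of genes called). With all libraries in, only Dusp5 passed without replicate 1 or without replicate 3. The Dusp6 difference thus rested in part on the doubted library, which read 733 CPM of Dusp6 beside 287 and 271 CPM in the other mock replicates. The same test between 1181-Grpr and 1181-Ctrl passed for no member, with 0.0% of genes called by edgeR, 0 members and 58 genes at an unadjusted p under 0.05, and 0 members by DESeq2. The Dusp5 difference there was 0.76 ± 0.735. Without the doubted library and with the replicate block it was 0.85 ± 0.319 (edgeR, unadjusted p = 0.0128, adjusted p = 0.716), and again no member passed.

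The GRP effects also differed between receptor-positive lines. Between 1057 and 1014-Grpr 7 members passed, against 15.1% of genes called. The effect was larger in 1057 for Dusp8 (by 1.44 ± 0.12, adjusted p = 1.35e-08), Dusp14 (0.78 ± 0.18), Dusp1 (0.66 ± 0.2) and Dusp10 (0.54 ± 0.12). It was larger in 1014-Grpr for Dusp7 (-0.89 ± 0.075, adjusted p = 1.63e-08), Dusp6 (-0.76 ± 0.1) and Dusp4 (-0.54 ± 0.099). The Dusp5 effect differed by -0.21 ± 0.13 between these lines (adjusted p = 0.36), that of Dusp16 by 0.16 ± 0.097 (adjusted p = 0.32) and that of Dusp2 by -0.65 ± 0.35 (adjusted p = 0.245). The effects in 1057 and 1064 differed for no member by edgeR, against 1.3% of genes called, with Dusp4 and Dusp5 at an unadjusted p under 0.05 and Dusp4 called by DESeq2. With the replicate block, which is paired in 1064 but not in 1057, Dusp8, Dusp5, Dusp4 and Dusp6 passed, against 16.6% of genes called. Between 1064 and 1014-Grpr none passed either, against 0.247%, with 3 members at an unadjusted p under 0.05 (Dusp2, Dusp5 and Dusp7) and Dusp7 called by DESeq2. With the replicate block Dusp7 (-0.63 ± 0.12, adjusted p = 0.00165) and Dusp4 (-0.27 ± 0.064, adjusted p = 0.00892) passed there, against 14.2%.

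Before any treatment the lines already held different sets of these phosphatases. All 10 members differed between 1057 and 1064, against 61.3% of genes called. Dusp14 (3.34 ± 0.34 on the log2 scale), Dusp5 (1.21), Dusp4 (0.90), Dusp1 (0.58), Dusp7 (0.57) and Dusp6 (0.52) were higher in 1057. Dusp2 (-3.31 ± 0.235), Dusp10 (-2.02 ± 0.25), Dusp8 (-1.89 ± 0.29) and Dusp16 (-1.12 ± 0.16) were higher in 1064. Dusp8, Dusp10 and Dusp16 were thus higher in 1064, and the cytoplasmic Dusp6 and Dusp7 in 1057. The nuclear members were split, with Dusp2 higher in 1064 and Dusp1, Dusp4 and Dusp5 in 1057. Leaving out each replicate in turn gave 8 to 10 calls.

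The transfected lines were also compared with their controls at rest. Dusp7 was higher in 1181-Grpr than in 1181-Ctrl, at 22.6, 21.8 and 25.7 CPM against 14.0, 16.9 and 13.9 CPM (0.64 ± 0.2, adjusted p = 0.0444), the only member called, against 12.1% of genes. Without the doubted library of 1181-Grpr it was again the only one (0.63 ± 0.096, adjusted p = 0.000119), against 18.9%. The first call was lost without replicate 1 and without replicate 3. With the replicate number as a block Dusp5 (0.90 ± 0.29) was also higher in 1181-Grpr and Dusp16 (-0.41 ± 0.11) lower, against 25.0% of genes called, and without the doubted library Dusp6 (-0.28 ± 0.077) was lower too, against 39.8%. No member differed between 1014-Grpr and 1014-Ctrl, against 3.23% of genes called, with 4 at an unadjusted p under 0.05 (Dusp4, Dusp5, Dusp6 and Dusp10) and Dusp4 and Dusp6 called by DESeq2. Without the doubted mock library the largest of the 10 differences there was -0.22 ± 0.17, for Dusp5.

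The 2 control lines differed in 6 members, against 41.4% of genes called. Dusp6 (1.04 ± 0.24), Dusp4 (0.96 ± 0.31) and Dusp16 (0.57 ± 0.2) were higher in 1181-Ctrl, and Dusp7 (-1.56 ± 0.19), Dusp5 (-1.29 ± 0.37) and Dusp2 in 1014-Ctrl. Dusp2 was at or near 0 in 1181-Ctrl, at 0, 0.0612 and 0 CPM, beside 0.57, 0.0825 and 0.519 CPM in 1014-Ctrl. Without the doubted library the same 6 members passed, against 53.1% of genes called, with 1.79 ± 0.11 for Dusp4, 1.64 ± 0.11 for Dusp6, 0.56 ± 0.22 for Dusp16, -1.86 ± 0.094 for Dusp7 and -1.11 ± 0.4 for Dusp5. Without replicate 1 there was 1 call and without replicate 3 there were 3.

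**Figure D5:**
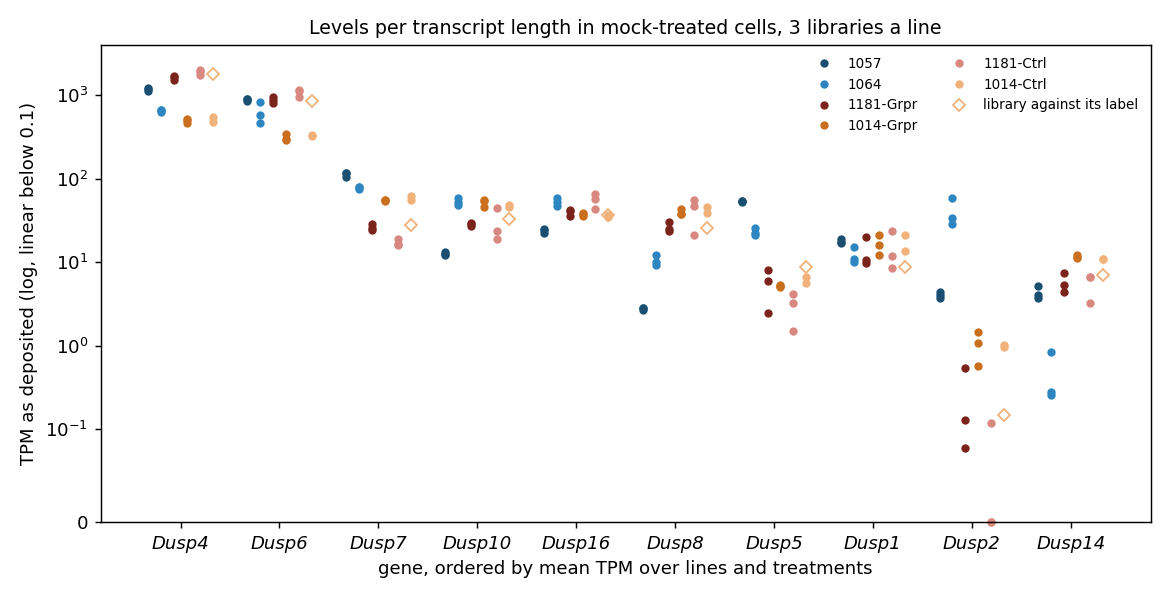
TPM (log axis) of the 10 members in mock-treated cells of the 6 lines, with 3 libraries a line shown as points and the 1014-Ctrl library that goes against its label as an open diamond. Dusp4 and Dusp6 lie above the other 8 members in every line, between 287 and 2011 TPM.

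Levels of different genes were compared per transcript length, as the authors' TPM. The doubted libraries are included, and without them the order was the same. Averaged over the 24 groups of line and treatment the order was Dusp4 (1032 TPM), Dusp6 (695), Dusp7 (62.0), Dusp10 (42.3), Dusp16 (41.9), Dusp8 (31.0), Dusp5 (27.6), Dusp1 (17.5), Dusp2 (11.4) and Dusp14 (7.08). Dusp4 and Dusp6, the readouts of ERK output, had the highest mean of the 10 in mock-treated cells of every line. In 1057, for example, Dusp6 stood at 877 ± 20.8 TPM beside 112 ± 6.50 TPM for Dusp7. When the genes were ordered within each line by their mock-treated level, the libraries of neighbouring genes overlapped for 1 of 9 pairs in 1057, 2 in 1014-Grpr, 3 in 1181-Grpr, 4 each in 1064 and 1181-Ctrl, and 6 in 1014-Ctrl. In 1064, for example, Dusp4 (645 ± 18.3 TPM, mean ± s.d., n = 3) and Dusp6 (618 ± 189 TPM) could not be ordered. Dusp2 shows how widely a member can vary between lines, with 40.2 TPM in mock-treated 1064 cells and 0.04 TPM in 1181-Ctrl. Dusp9, the remaining gene of the MAP kinase phosphatase family, had 0 to 14 counts a library, and 3 or fewer in 62 of 72.

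The rest of the pathway was examined with lists of genes. The shares of all genes called with GRP, 52.6% in 1057, 6.38% in 1064 and 29.0% in 1014-Grpr, are the background for each count below. Immediate-early genes, which growth signals switch on within minutes, rose with GRP in 12 of 12 in 1057, 8 of 12 in 1064 and 12 of 12 in 1014-Grpr, and none fell. Their median log2-fold changes were 0.76, 1.21 and 2.01. Fosl1, which encodes a FOS-family partner of AP-1, rose by 3.11 ± 0.17 in 1057, 2.66 ± 0.67 in 1064 and 4.48 ± 0.22 in 1014-Grpr. Fosb, a relative of Fosl1, rose by 2.68, 3.07 and 3.10, and the transcription factor genes Nr4a1 (2.89, 2.66 and 1.49) and Egr3 (2.07, 1.77 and 2.65) rose in the same 3 lines. In 1014-Grpr all 12 were lower with GRP+RC than with GRP. In 1057 5 were lower and 1 higher, and 11 of 12 were higher with RC alone than in mock.

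Of 7 to 8 genes of the ERK readout list that were tested, GRP raised 2 and lowered 4 in 1057, raised 1 in 1064, and raised 4 and lowered 1 in 1014-Grpr, beside 52.6%, 6.38% and 29.0% of all genes changed. Spry2, a feedback inhibitor of receptor signalling, rose by 1.06 ± 0.031 in 1057, 1.49 ± 0.19 in 1064 and 2.02 ± 0.17 in 1014-Grpr. Its relative Spry4 fell by 0.27 on the log2 scale in 1057 and rose by 0.92 in 1014-Grpr, the directions that Dusp7 took in these lines. Epha2, a receptor tyrosine kinase, rose by 2.18 ± 0.29 in 1014-Grpr and fell by 0.09 on the log2 scale in 1057, and Etv5, an ETS factor, fell in both (-0.44 in 1057 and -0.33 in 1014-Grpr).

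Among 12 tested genes of the ERK cascade 5 rose and 4 fell in 1057, 1 rose and 1 fell in 1064, and 4 rose and 1 fell in 1014-Grpr, beside 52.6%, 6.38% and 29.0% of all genes. Ksr1, a scaffold of the cascade, fell in all 3 lines (-0.58 ± 0.074, -1.84 ± 0.41 and -0.88 ± 0.087). The scaffold gene Lamtor3 rose by 0.29 in 1057 and 0.44 in 1014-Grpr, and Braf by 0.35 in 1064 and 0.24 in 1014-Grpr. Of 16 to 17 tested genes of the p38, JNK and ERK5 cascades 4 rose and 2 fell in 1057, 1 rose in 1064, and 4 rose and 3 fell in 1014-Grpr, so the share in 1057 lay below that over all genes. The p38 kinase kinase Map2k3 rose by 0.78 in 1057 and 0.98 in 1014-Grpr, the p38 gene Mapk11 by 0.32 and 0.66, the JNK scaffold Mapk8ip3 by 0.38 and 0.32, and Map2k4 by 0.69 in 1064 and 0.42 in 1014-Grpr.

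Of the other dual-specificity phosphatases, 10 to 12 were tested; 3 rose and 4 fell in 1057, none passed in 1064, and 2 rose in 1014-Grpr, beside 52.6%, 6.38% and 29.0% of all genes. Dusp3, a small phosphatase also able to act on MAP kinases, rose from 93.3 ± 5.16 to 228 ± 6.07 CPM in 1057 (mean ± s.d., n = 3) and by 0.29 ± 0.062 in 1014-Grpr. With the replicate block 2 of these 12 genes rose and 2 fell in 1064, and 10 of 12 immediate-early genes rose, beside 43.5% of all genes. No gene of the lists passed in 1181-Grpr with GRP, where the 12 immediate-early genes had a median of 0.23. In receptor-free 1181-Ctrl the 11 tested had a median of 0.13 with GRP. With RC alone the medians were 0.02 in 1181-Grpr and 0.24 in 1181-Ctrl.

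Grpr itself moved with GRP, and the direction differed between lines. It fell in 1057 (-0.40 ± 0.037) and 1064 (-1.01 ± 0.16), where it is endogenous, and rose by 2.10 ± 0.18 in 1014-Grpr, where CMV drives it, from 131, 112 and 148 CPM to 394, 555 and 596 CPM. In 1181-Grpr, also with the CMV construct, it read 19.4, 9.60 and 8.97 CPM in mock and 87.6, 20.3 and 41.8 CPM with GRP, higher in each same-numbered pair and without overlap of the groups, and the difference of 1.97 ± 1.12 did not pass (edgeR, unadjusted p = 0.108). Its part in the larger Dusp6 and Dusp7 responses of 1014-Grpr was not tested.

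Across the 24 groups of line and treatment, the genes whose mean log2(CPM + 1) ran closest to a member were found among 11947 genes kept in every line. For Dusp5 these were U2af1 (Pearson's r = 0.988), Fndc3a (0.987) and Heatr5a (0.984). For Dusp7 they were Trmt1 (0.996), Eif3l (0.990) and Aprt (0.986), for Dusp8 Cltb (0.971), Tubb2b (0.964) and Mpp2 (0.963), for Dusp10 3110039I08Rik (0.979), Lmbrd1 (0.971) and Pea15a (0.968), and for Dusp14 Slc30a5 (0.979), Yipf6 (0.975) and Seh1l (0.974). Groups of the same line share their cells, so these values mainly follow the differences between lines. Without the doubted libraries the values of these 15 genes lay between 0.961 and 0.996.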

How the data were processed

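PolyA RNA of 6 mouse melanoma lines was sequenced as 72 libraries. Per the labels and the study's methods, reads were checked with FastQC 0.11.5 and aligned with STAR (version not given in the sources used here) to mm10 (GRCm38.p5). The authors deposited raw counts per gene, and TPM values, which were used only to compare genes with each other. Library totals of 19512882 to 46862053 counts limit precision for scarce genes, and floors cover counting error only. Replicates are numbered 1 to 3 in the labels. The labels do not say whether they came from separate cultures. The paper reports at least 3 biological replicates for cell culture experiments, without saying how these relate to the numbers. The p-values measure the spread between these samples, which may be partly technical.

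Counts were tested with edgeR 4.0.16 (filterByExpr, TMM, quasi-likelihood test, Benjamini-Hochberg over all genes tested, threshold 0.05) in R 4.3.3, with the 12 libraries of a line or the 24 of a pair of lines in each fit. Standard errors were taken as the absolute log2-fold change over the root of the F statistic. The fits were also run on simulated counts with known changes. These counts were drawn independently for each library, so they do not test the fits where same-numbered libraries deviate together. Alternatives were DESeq2 1.42.0, no filter on low counts, a fold threshold, 1 fit of all 72 libraries, the omission of each replicate or of the 2 doubted libraries, and a block for the replicate number (within a line for treatments, shared between lines for levels at rest). Whether the numbers pair the libraries was checked by correlating deviations from treatment means. Every same-numbered pair exceeded 0.1 in 1064 (mean 0.733), 1014-Grpr (0.468) and 1181-Ctrl (0.792), and, without the doubted libraries, in 1181-Grpr (0.577) and 1014-Ctrl (0.402), but not in 1057 (0.023).

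The members and lists were chosen with earlier results of these data known. All members are named. From each other list, up to 4 genes that passed for GRP in at least 2 receptor lines are named, those with the largest mean absolute change, plus Dusp9, and for each member that passed in at least 2 receptor lines the 3 genes closest in pattern. A gene that met this rule is not reported here. Of the members, Dusp2 was not kept in every line and has no such genes. Positions and exon overlaps are from GENCODE release 21 (GRCm38) and promoters from RefSeq.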

Additional observations from a re-analysis of the deposited data

Results flagged for a closer look

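The GRP effect differed between lines, by a test of the difference itself, for these members. Between 1014-Grpr and 1014-Ctrl the difference of log2-fold changes was 1.98 for Dusp5, 1.42 for Dusp6 and 0.51 for Dusp10, each larger in 1014-Grpr. Without the 1014-Ctrl mock library that goes against its label these were 1.78, 0.80 and 0.67. Between 1057 and 1014-Grpr the difference was 1.44 for Dusp8, 0.78 for Dusp14, 0.66 for Dusp1 and 0.54 for Dusp10, larger in 1057. It was -0.89 for Dusp7, -0.76 for Dusp6 and -0.54 for Dusp4, larger in 1014-Grpr.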

How the results depend on the processing

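Counts of members that passed moved by more than 1.5 times in the following cases, and no value that had passed the test reversed. In 1 fit of all 72 libraries the counts for GRP, GRP+RC against GRP, RC, and GRP+RC against mock were 5, 0, 0 and 3 in 1057. In the same fit GRP gave 3 in 1064, the 3 GRP comparisons gave 4, 1 and 0 in 1014-Grpr, GRP and RC gave 1 each in 1014-Ctrl, and the difference between 1057 and 1014-Grpr and the levels at rest of the 1014 pair gave 1 each. Requiring also an absolute log2-fold change above 1 left 5, 0, 1 and 3 in 1057 and 2, 1 and 0 in 1014-Grpr, 1 for the difference between 1057 and 1014-Grpr, and at rest 6 between 1057 and 1064 and 0 in the 1181 pair. DESeq2 gave 4 for GRP in 1064, 2 for GRP+RC against mock in 1014-Grpr, 1 for each of the effect differences of 1064 with 1057 and with 1014-Grpr, and 2 at rest in the 1014 pair. Without the filter the counts were 2 for GRP+RC against mock in 1014-Grpr, and at rest 0 in the 1181 pair and 2 in the 1014 pair.

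With the replicate block the counts were 5 for GRP and 2 for GRP+RC against GRP in 1064, 7 for GRP+RC against GRP and 5 for GRP+RC against mock in 1014-Grpr, 4 for the effect difference between 1057 and 1064 (Dusp4, Dusp5, Dusp6 and Dusp8), 2 between 1064 and 1014-Grpr, and 3 at rest in the 1181 pair (Dusp5, Dusp7 and Dusp16). The same-numbered libraries of 1057 did not deviate together, and a number shared between lines marks nothing in the labels. Without the 2 doubted libraries the effect difference of the 1014 pair gave 5, and with the block also 9. The levels at rest of the 1181 pair gave 4 with both changes.

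Leaving out each replicate in turn gave 3 to 5 for GRP+RC against GRP in 1057, 0 to 2 for GRP and 0 to 0 for GRP+RC against GRP in 1064, and 1 to 4 for GRP+RC against GRP and 0 to 0 for GRP+RC against mock in 1014-Grpr. It gave 1 to 4 for the effect difference of the 1014 pair, and at rest 0 to 2 in the 1181 pair and 1 to 5 between the control lines. Ranks by TPM and by CPM per kb were the same for 8 of 10 members, and leaving out the 2 doubted libraries, an alternative chosen after seeing the data, changed no rank. The causes of these moves were not tested. Depth limits Dusp2 in the 1181 lines and Dusp14 in 1064.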
